A study of Mus musculus with 9 samples.

Results

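The genes described here encode the ATP-binding cassette (ABC) transporters, the organic anion transporting polypeptides (OATP, gene symbols Slco) and the organic cation, anion and zwitterion carriers of the Slc22 family, as measured in rat liver. Members were chosen by a rule on gene symbols, with earlier results of these data known. In the count table, 74 symbols belong to the families Abca to Abcg, Slco and Slc22a. The rule left out 5 of them by name (Abca1, Abcg1, Abcg5, Abcg8 and Abcb11), which left 69 of 19686 genes. They comprise 13 Abca, 6 Abcb, 10 Abcc, 4 Abcd, 4 Abce and Abcf, 4 Abcg, 12 Slco and 16 Slc22 genes. The P-glycoprotein genes Abcb1a and Abcb1b were not analysed here.

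Liver mRNA was sequenced from 9 male Wistar rats, 3 in each of 3 groups, after 8 weeks of treatment and 12 h of fasting. The control rats drank purified water and received saline by gavage, the model rats drank 15% fructose and received saline, and the HME rats drank 15% fructose and received 1.8 g/kg of the 50% methanol extract of Danggui-Shaoyao-San (DSS), a traditional herbal formula. In the labels this last group is DSS, but the methods name HME as the extract sequenced, and that name is used here. No group received the extract without fructose, so the extract was only measured on top of the drink. The organism field says mouse and the strain field Wistar rat, with rat Ensembl identifiers in the count table. The age of the rats was not given in the sources used here.

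The liver removes drugs, bile acids, bilirubin and hormone conjugates from portal blood in steps. OATP and Slc22 carriers on the sinusoidal membrane take the compounds up, enzymes conjugate them, and ABC pumps driven by ATP export them, into bile through the canalicular membrane or back into blood through the basolateral one. Other ABC genes serve different ends: most Abcd proteins carry fatty acids into peroxisomes, the Abce and Abcf proteins work on ribosomes and do not cross membranes, several Abcb proteins sit in mitochondria, and Abcc8 and Abcc9 are the sulfonylurea receptor subunits of potassium channels.

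The 9 libraries held 14345819 to 26837227 counts assigned to genes. The 69 transporter genes took 0.432% to 0.488% of these counts in control rats, 0.361% to 0.486% in model rats and 0.486% to 0.641% in HME rats. Model replicate 1, the library with the lowest of these shares, also had the lowest TMM factor (0.871, against up to 1.14 elsewhere), a scaling factor that edgeR computes from the bulk of the genes. Levels below are CPM, read counts brought to a common library size that includes this factor. They are listed in the order of replicates 1, 2 and 3, and they were not divided by gene length, so they compare rats for a gene and not genes with each other. The 8 hepatocyte marker genes summed to between 105100 and 166900 CPM, most of it from albumin, at 87210 to 145600 CPM. In model against control, 4 of the 8 were lower and 1 was higher at an unadjusted p under 0.05, where all genes gave 6.36% and 6.84%. The lower ones included the urea cycle genes Cps1 (log2 fold change -0.76) and Ass1 (-0.67), and the higher one was Glul (0.63). By direction alone, 4 of the 8 were higher, albumin (0.34) among them, and 4 were lower. In edgeR 0 passed an adjusted p of 0.05, against 0.601% of all genes, while DESeq2 called 3, where it called 2.05% of all genes. The part of this in the transporter values was not tested. In whole liver, fewer cells of a type and less RNA per cell cannot be told apart.

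Of the 69 members, 8 had fewer than 10 counts over all 9 libraries (Abca13, Abcc12, Slc22a2, Slc22a13, Slc22a20, Slc22a22, Slco1a6 and Slco4c1), and 7 further genes with 10 to 39 counts in all also stayed below the filter in every comparison. The other 54 members were tested in the comparisons with control and 52 in that of HME against model. A gene was called changed at an adjusted p of 0.01 or less and an absolute log2 fold change of 0.5 or more in edgeR's quasi-likelihood test, with Benjamini-Hochberg adjustment over all genes tested. Every adjusted p below is from that test unless DESeq2 is named. The 3 comparisons share groups, so their values are given side by side and are not independent of each other.

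The first comparison asks what the fructose drink did to these genes. In model against control rats, 0 of 54 members were called, where 0.0801% of the 12486 genes tested were called. At an adjusted p of 0.05 or less, 1 member passed (Abcc8), against 0.601% of all genes. Unadjusted p was under 0.05 for 5 members that were higher (Abcc8, Slco1b2, Slc22a5, Slc22a7 and Slc22a8) and 4 that were lower (Slc22a23, Abcd2, Abce1 and Abca8a), against 6.84% and 6.36% of all genes. The 3 model rats and the 3 control rats did not overlap for 11 members, or 20.4%, close to the 21.1% of all genes. DESeq2, run on the same counts, called 3 members (Abcc8, Slco1b2 and Slc22a23), where it called 2.05% of all genes.

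The second comparison asks what the extract did on top of the drink. In HME against model rats, 0 of 52 members were called, against 0.136% of 12502 genes, and 0 passed an adjusted p of 0.05, against 0.456%. Unadjusted p was under 0.05 for 6 higher members (Abcc2, Abcc3, Abca8a, Slco1a1, Slco1a4 and Slc22a17), or 11.5%, and 2 lower ones (Abcc8 and Abcg3l1), or 3.85%, where all genes gave 3.54% and 4.49%. The groups did not overlap for 11 members, or 21.2%, against 14% of all genes. DESeq2 called 3 members (Abcc2, Abca8a and Abcc8), against 1.18% of all genes.

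The third comparison sets the HME rats, with drink and extract, against the control rats. It called 1 of 54 members, Slco1b2, where it called 1.48% of 12633 genes. At an adjusted p of 0.05 or less, 8 members passed, or 14.8% against 7.21% of all genes: Slco1b2, Slco1a1, Abcb4, Slc22a17, Abca2 and Abca6 were higher, and Slc22a23 and Abcd2 were lower. Unadjusted p was under 0.05 for 14 higher members (25.9%, against 11.9% of all genes) and 9 lower ones (16.7%, against 12.5%). HME and control rats did not overlap for 18 members, or 33.3%, against 30.1% of all genes. DESeq2 called 9 members, where it called 6.09% of all genes.

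**Figure D1:**
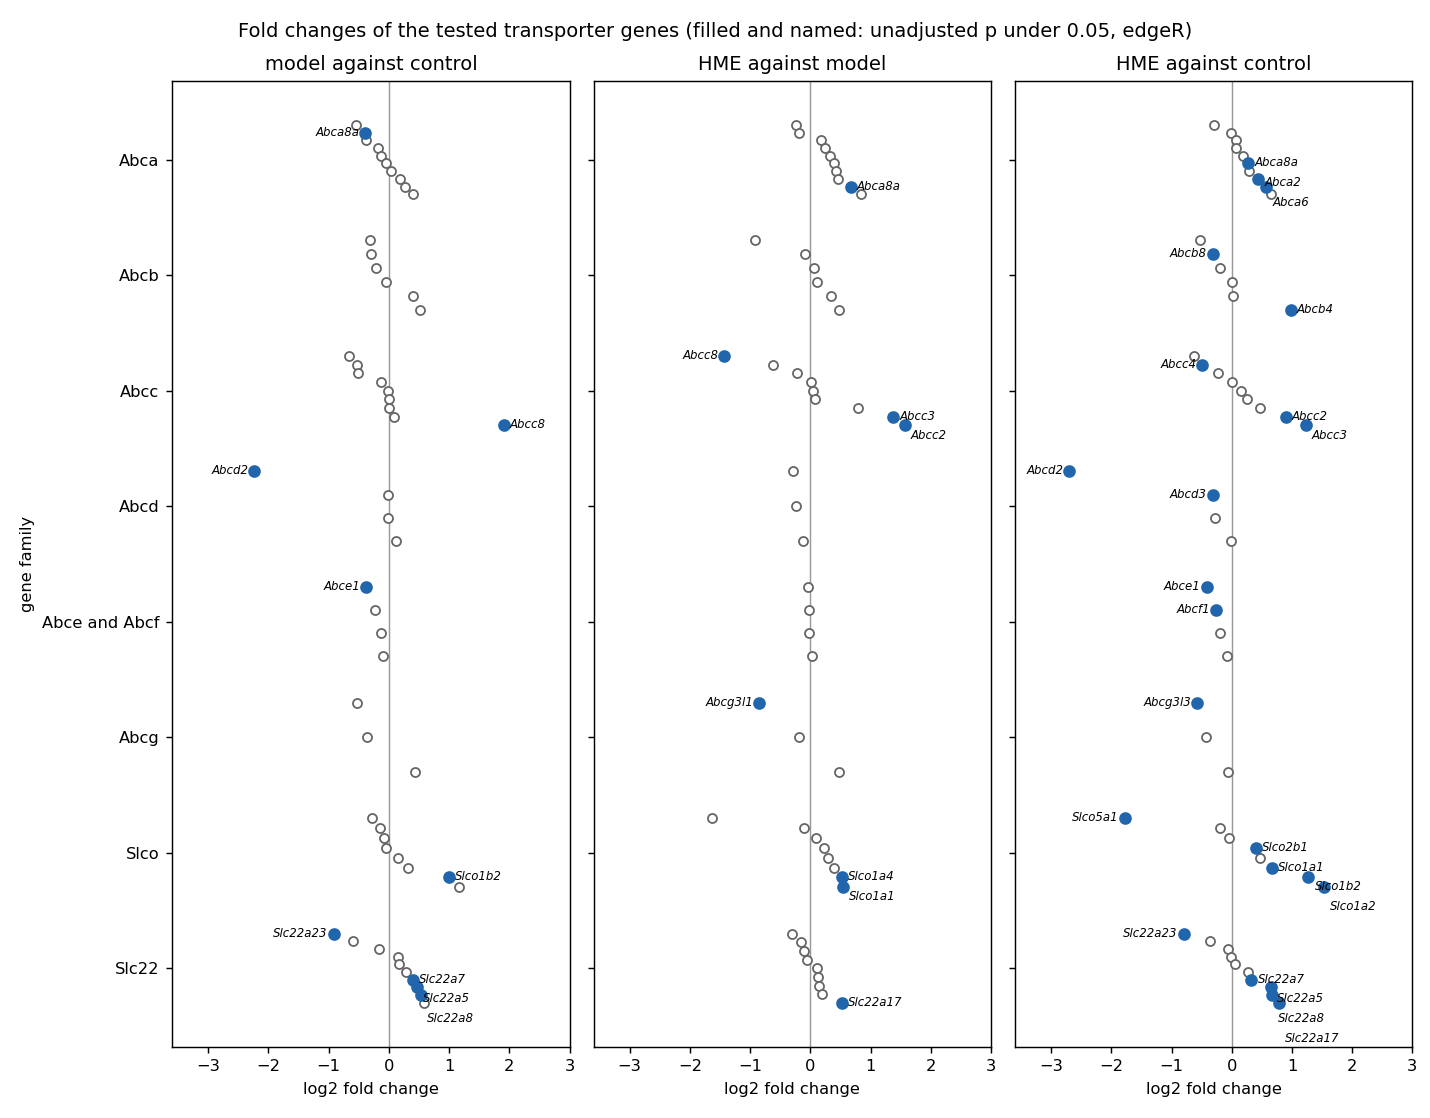
Log2 fold changes (x axis) of the tested members by family (y axis) in the 3 comparisons, 1 dot per gene, with the members at an unadjusted p under 0.05 picked out. In model against control all 4 Abce and Abcf genes lie below 0, and in HME against model 8 of 10 Abca genes and 6 of 8 Slco genes lie above it. Of all genes, 49.9% and 50.1% lie above 0 in these comparisons.

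By direction, the members leaned lower in model against control (21 higher, 33 lower, median log2 fold change -0.04), higher in HME against model (31 higher, 21 lower, median 0.09) and neither way in HME against control (28 higher, 26 lower, median 0.01), while the median of all genes was within 0.01 of 0 in each. With library size as the only scaling, the median of all genes moved to -0.14 in both comparisons with control, and the members at an unadjusted p under 0.05 became 2 higher and 9 lower in model against control and 9 higher and 12 lower in HME against control. Directions below are therefore relative to the bulk of the genes. The Abcc genes ran from -0.67 to 1.91 in model against control and from -1.43 to 1.57 in HME against model.

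The sinusoidal uptake carriers held the member that passed the test. Slco1b2 (ENSRNOG00000030538) encodes Oatp1b2, the liver carrier of bile acids, bilirubin and many drugs. It was at 455, 391 and 310 CPM in control rats, 571, 747 and 985 in model rats and 1106, 765 and 928 in HME rats. Every fructose-drinking rat, with or without extract, lay above every control rat, and the model and HME rats overlapped. The means were 385 ± 72.4, 768 ± 208 and 933 ± 170 CPM (SD, n = 3 each). Slco1b2 rose 2.42-fold in HME against control rats (log2 fold change 1.27, SE 0.18, adjusted p = 0.0053). In model against control rats it was 1.99-fold higher (log2 0.99, SE 0.23, adjusted p = 0.116), which did not pass in edgeR and passed in DESeq2 (adjusted p = 0.0026). The difference between HME and model rats was 0.29 on the log2 scale, with a 95% interval from -0.24 to 0.82. The call in HME against control was lost when any rat but HME replicate 2 was left out, with log2 fold changes from 1.14 to 1.41 and adjusted p from 0.0055 to 0.025.

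Slco1a1 (ENSRNOG00000036984), a carrier of bile acids and steroid conjugates, showed another order of groups. It was at 235, 223 and 205 CPM in control rats, 179, 272 and 285 in model rats and 406, 331 and 323 in HME rats. All HME rats lay above all control and all model rats, and the control and model rats overlapped. Its log2 fold change was 0.67 in HME against control (adjusted p = 0.0176), 0.53 in HME against model (adjusted p = 0.556) and 0.15 in model against control (adjusted p = 0.775). Slco1a4, which carries bile acids and digoxin, was at 232, 387 and 343 CPM in control, 316, 322 and 290 in model and 582, 404 and 345 in HME rats. Its HME rats lay above the model rats and overlapped the control rats, and its log2 fold change in HME against model was 0.53 with a 95% interval from 0.06 to 0.99 (adjusted p = 0.568). The Slco1a genes are close copies of each other, and reads that match more than 1 of them could have been lost or placed on the wrong copy.

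Slco2b1, a carrier of steroid sulfates, was at 166, 190 and 206 CPM in control, 226, 254 and 219 in model and 279, 211 and 252 in HME rats. Control rats lay below all other rats, by margins smaller than the range inside each group. Its log2 fold changes against control were 0.31 in model (adjusted p = 0.389) and 0.40 in HME rats (adjusted p = 0.119). Slco2a1, the prostaglandin carrier, overlapped between all groups, at 311, 395 and 381, then 283, 298 and 318, then 366, 306 and 379 CPM. Among the rest of the OATP genes, Slco5a1 had 1 count to 32 counts in 8 of the libraries and 0 in model replicate 1, and its HME rats lay below its control rats.

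**Figure D2:**
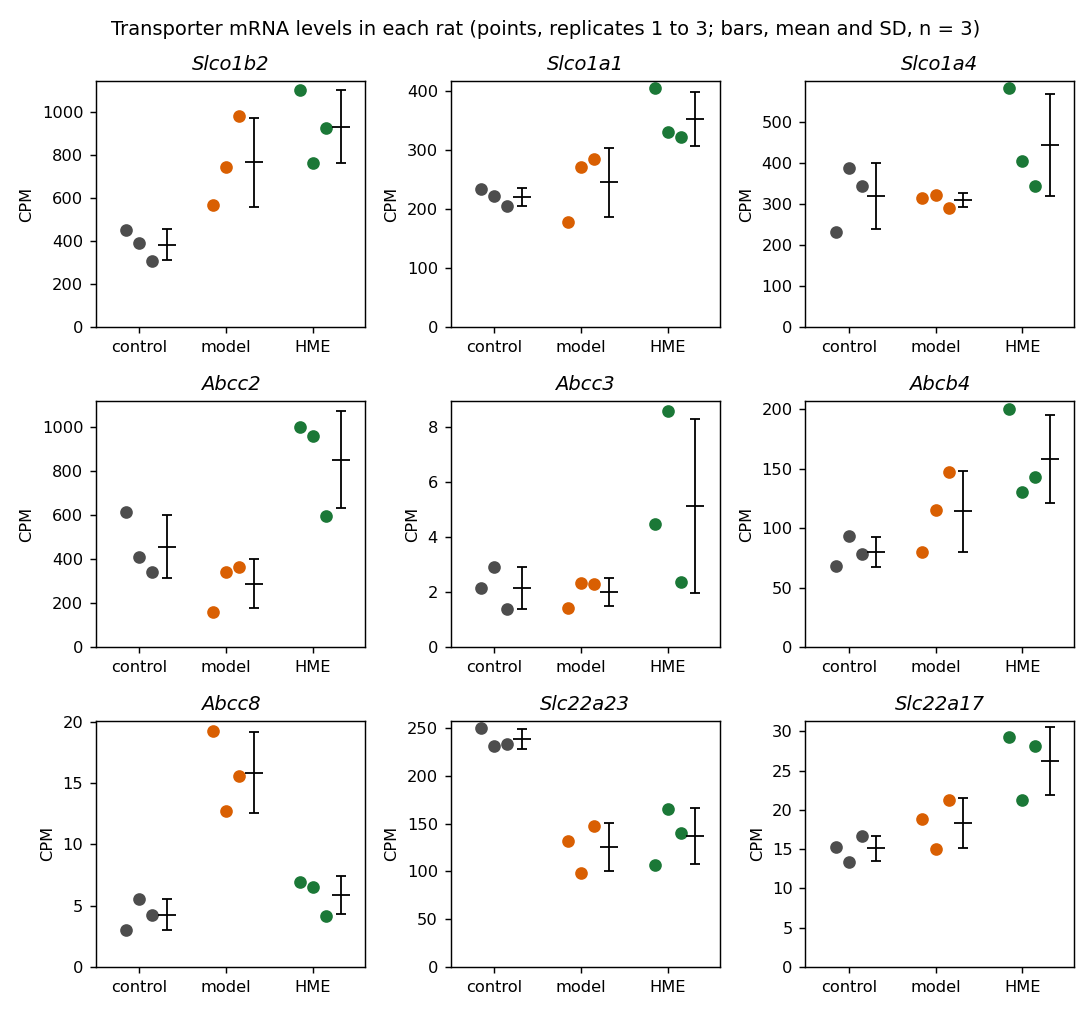
Level (y axis, CPM) of selected transporters in each of the 9 rats (dots) by group (x axis), with the mean and SD of each group (n = 3) beside them. Slco1b2 is lowest in the 3 control rats, Abcc8 is highest in the 3 model rats (12.7 to 19.3 CPM) and Abcc2 is higher in the 3 HME rats than in the 3 model rats.

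Of 10 Slc22 genes tested, 3 were higher and 1 lower at an unadjusted p under 0.05 in model against control, where all genes gave 6.84% and 6.36%. In HME against control 4 were higher and 1 lower, where all genes gave 11.9% and 12.5%. Slc22a8 (ENSRNOG00000018086), the organic anion carrier OAT3, was at 181, 191 and 206 CPM in control, 369, 244 and 218 in model and 355, 222 and 339 in HME rats. All fructose-drinking rats lay above the control rats. Its log2 fold changes were 0.53 in model (adjusted p = 0.328) and 0.66 in HME against control (adjusted p = 0.0569), with 0.25 in model against control once model replicate 1 was left out. Slc22a7, the organic anion carrier OAT2, was at 85.1, 98.4 and 107 CPM in control, 150, 110 and 122 in model and 131, 101 and 133 in HME rats, a log2 fold change of 0.40 in model against control (adjusted p = 0.361).

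Slc22a5, the carnitine carrier OCTN2, was at 9.89, 12.8 and 10.3 CPM in control, 14.1, 12.7 and 18.8 in model and 19.2, 19.9 and 13.0 in HME rats. HME rats lay above control rats (log2 fold change 0.66, adjusted p = 0.0667), and model rats overlapped both.

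Both Slc22 genes that passed an adjusted p of 0.05 in HME against control lie outside the list of hepatic drug carriers. Slc22a23 (ENSRNOG00000017210), whose substrates are not established, was at 251, 231 and 234 CPM in control, 132, 98.6 and 148 in model and 106, 165 and 140 in HME rats. Every fructose-drinking rat lay below every control rat. Its log2 fold change was -0.92 in model (SE 0.17, adjusted p = 0.0677; DESeq2 adjusted p = 2.06e-04) and -0.80 in HME rats (adjusted p = 0.0200), and 0.13 between HME and model, with a 95% interval from -0.36 to 0.61. Slc22a17, the lipocalin-2 receptor, was at 15.3, 13.4 and 16.6 CPM in control, 18.9, 14.98 and 21.2 in model and 29.3, 21.3 and 28.1 in HME rats. The lowest HME rat and the highest model rat were almost level, and the log2 fold change was 0.79 against control (adjusted p = 0.0195) and 0.52 against model rats (adjusted p = 0.549).

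Summed over the 6 sinusoidal carriers Slco1b2, Slco1a1, Slco1a4, Slco2b1, Slc22a7 and Slc22a8, the levels were 1353, 1480 and 1376 CPM in control, 1810, 1949 and 2120 in model and 2859, 2035 and 2319 in HME rats. The sum was higher in every fructose-drinking rat than in every control rat, and Slco1b2 contributed the widest difference. Slc10a1, the sodium-dependent bile acid carrier on the same membrane and no member, had a log2 fold change of 0.60 in model (adjusted p = 0.146) and 0.69 in HME against control (adjusted p = 0.0341).

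Among the export pumps, Abcc2 differed most between HME and model rats. Abcc2 (ENSRNOG00000046727) encodes Mrp2, the canalicular pump of bilirubin glucuronides and glutathione conjugates. It was at 616, 407 and 343 CPM in control, 161, 340 and 363 in model and 998, 958 and 597 in HME rats. All HME rats lay above all model rats, the lowest HME rat lay below the highest control rat, and the model and control rats overlapped. HME rats were 2.97-fold above model rats (log2 1.57, SE 0.33, 95% interval 0.81 to 2.34), which did not pass in edgeR (adjusted p = 0.141) and passed in DESeq2 (adjusted p = 1.57e-04). Model replicate 1 was the lowest of the 9 rats, and without it the log2 fold change was 1.29 (adjusted p = 0.119). Against control, HME rats had a log2 fold change of 0.90 (adjusted p = 0.0843) and model rats of -0.67 (adjusted p = 0.442).

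Abcb4 (ENSRNOG00000008012), the canalicular floppase that delivers phosphatidylcholine to bile, was at 68.3, 93.7 and 78.1 CPM in control, 80.0, 115 and 147 in model and 201, 131 and 144 in HME rats. HME rats lay above control rats, and model rats overlapped both groups. The log2 fold change was 0.98 in HME against control (SE 0.18, adjusted p = 0.0185), 0.51 in model against control (adjusted p = 0.382) and 0.48 in HME against model (adjusted p = 0.719). Without model replicate 1, the difference between model and control was 0.70 and that between HME and model 0.28. The bile salt pump Abcb11, which the rule leaves out, differed by 0.40 in HME against control and did not pass.

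The basolateral pumps had lower counts. Abcc3 (Mrp3), which returns glucuronides to blood, was at 2.16, 2.93 and 1.40 CPM in control, 1.41, 2.32 and 2.28 in model and 4.46, 8.58 and 2.38 in HME rats. HME replicate 2 was the highest, HME replicate 3 lay just above the model rats, and the log2 fold change in HME against model was 1.38 (SE 0.47, adjusted p = 0.486). Abcc4 (Mrp4), an exporter of cyclic nucleotides and conjugates, was at 12.1, 11.6 and 9.65 CPM in control, 5.82, 10.48 and 7.16 in model and 8.70, 7.72 and 7.44 in HME rats, with HME rats below control rats (log2 -0.49, adjusted p = 0.0813). For Abcc6, the pump tied to ATP release from hepatocytes, all groups overlapped at 194 to 266 CPM, and the 95% interval in HME against control ran from -0.13 to 0.44. Abcg2, the breast cancer resistance protein, also overlapped between all groups at 7.86 to 15.9 CPM. These 4 genes with Abcc2 and Abcb4 summed to 908, 760 and 661 CPM in control, 477, 678 and 794 in model and 1480, 1372 and 973 in HME rats. In this sum each HME rat lay above each rat of the other groups. Most of it was Abcc2 in the HME rats (998, 958 and 597 CPM), which alone overlapped between HME and control rats. The sum therefore does not show that the 6 exporters were higher as a group.

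Of the 13 hepatic drug and bile carriers listed by name among the members, 9 had an unadjusted p under 0.05 and were higher in HME against control, 1 (Abcc4) was lower, and the median log2 fold change was 0.655, where 11.9% of all genes were higher and 12.5% lower at that p. Model against control gave 4 higher and 0 lower, with a median of 0.15, against 6.84% and 6.36% of all genes. HME against model also gave 4 higher and 0 lower, with a median of 0.29, against 3.54% and 4.49%. At an adjusted p of 0.05 or less, 3 of the 13 passed in HME against control (Slco1b2, Slco1a1 and Abcb4), against 7.21% of all genes, and 0 in the other comparisons. The list was drawn up with earlier results of these data known. Its counts beside the shares of all genes are therefore a description and no independent support.

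**Figure D3:**
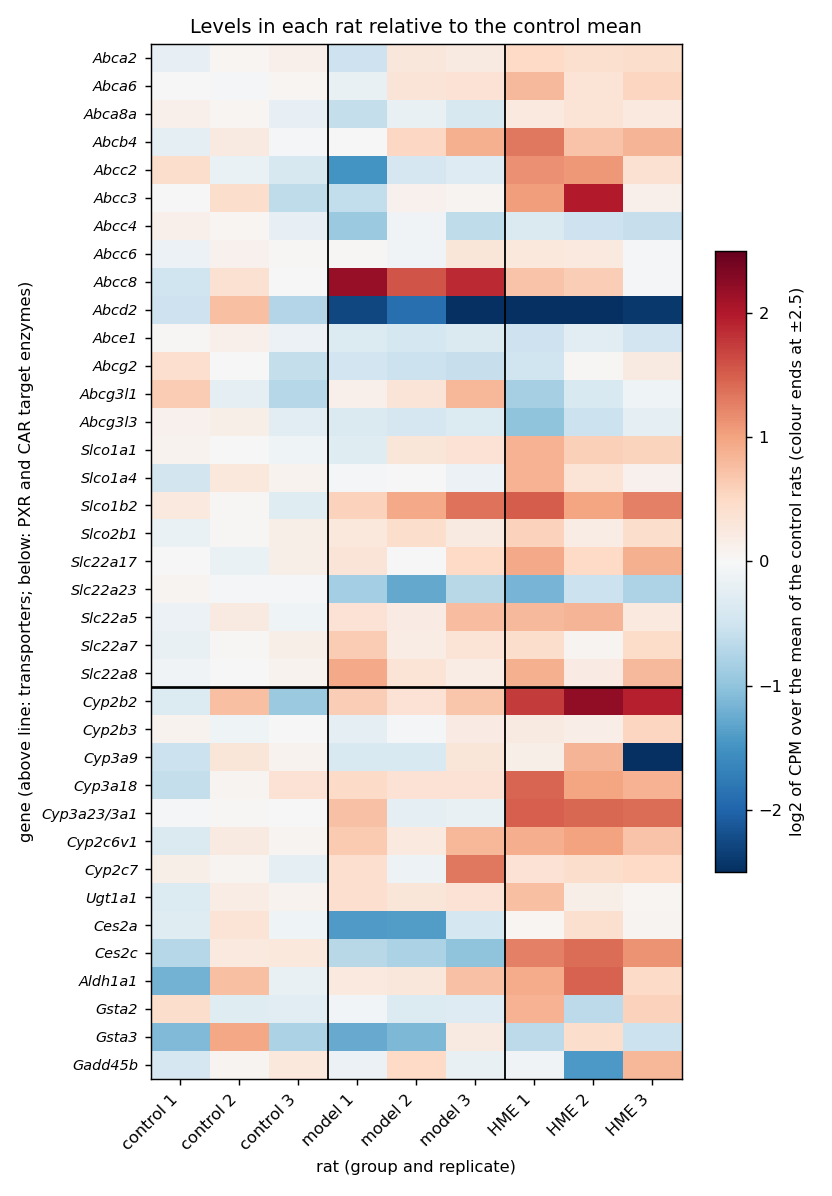
Level of each named member (above the line) and of the PXR and CAR target enzymes (below it) in each of the 9 rats, as log2 of the ratio to the control mean (color scale), with a gene on each line and a rat in each column. Slco1b2 is at 0.57 to 1.52 in all 6 fructose-drinking rats, Slc22a23 at -1.28 to -0.53 in the same rats, and Abcc8 at 1.58 to 2.18 in the 3 model rats, against 0.71 or less in the others.

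Abcc8 (ENSRNOG00000021130), the SUR1 subunit of the ATP-sensitive potassium channel best known from pancreatic beta cells, was the member with the smallest adjusted p in both comparisons with the model group. It was at 3.00, 5.55 and 4.19 CPM in control, 19.3, 12.7 and 15.5 in model and 6.96, 6.53 and 4.13 in HME rats. Model rats lay above all other rats, and HME and control rats overlapped. The means were 4.25 ± 1.27, 15.8 ± 3.31 and 5.87 ± 1.52 CPM (SD, n = 3 each). Model rats were 3.76-fold above control rats (log2 1.91, SE 0.27, adjusted p = 0.0279; DESeq2 adjusted p = 7.12e-08), and HME rats were 2.69-fold below model rats (log2 -1.43, SE 0.25, adjusted p = 0.0738; DESeq2 adjusted p = 8.17e-05). HME against control gave 0.47, with a 95% interval from -0.16 to 1.10. Leaving out each rat in turn gave log2 fold changes of 1.70 to 2.15 in model against control, with adjusted p from 0.0292 to 0.111.

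Because Abcc8 marks endocrine cells, its channel partners were read as well, chosen after its values were seen. Kcnj11, the pore subunit that pairs with SUR1, had 0, 9 and 0 counts in control, 48, 9 and 22 in model and 4, 9 and 1 in HME rats. Its highest counts were in model replicates 1 and 3, and model replicate 2 had as many counts as 1 control rat and 1 HME rat. It was tested in HME against model only, with a log2 fold change of -2.40 (adjusted p = 0.384). Kcnj8, the other pore subunit, was at 4.38 to 9.32 CPM in all 9 rats. Pax6, a factor of endocrine pancreas, had fewer than 10 counts in all libraries together, and Ins1, Ins2, Gcg, Sst and Chga were not analysed here. The pancreas and intestine marker list (4 of 6 genes found) summed to 14.1 to 17.8 CPM in control, 19.0 to 29.3 in model and 16.7 to 27.7 in HME rats. In this sum all model rats lay above all control rats, and the HME rats overlapped both groups. Its gene Cela1 had a log2 fold change of 0.59 in model against control (adjusted p = 0.257). The part of this list in the Abcc8 values was not tested. Abcc9, the SUR2 subunit, was at 18.4, 42.4 and 43.8 CPM in control, 44.6, 40.4 and 18.7 in model and 25.5, 11.98 and 29.8 in HME rats, and its groups overlapped.

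Many Abca proteins move lipids within and out of cells. Of 10 tested, 8 had a log2 fold change above 0 in HME against model (median 0.36), as had 50.1% of all genes, and 8 in HME against control (median 0.23), as had 49.1% of all genes. At an unadjusted p under 0.05, 1 was higher in HME against model, against 3.54% of all genes, and 3 in HME against control, against 11.9%. Abca6 was at 165, 158 and 169 CPM in control, 145, 205 and 211 in model and 287, 209 and 238 in HME rats, and its log2 fold change in HME against control was 0.57 (adjusted p = 0.0367). Abca2, a lysosomal lipid carrier, was at 40.8, 48.6 and 51.4 CPM in control, 32.6, 56.8 and 54.7 in model and 66.3, 61.9 and 63.5 in HME rats. Its HME rats lay above all others, at 0.44 against control (adjusted p = 0.0468) and 0.42 against model (adjusted p = 0.682).

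Abca8a was at 179, 172 and 144 CPM in control, 109, 145 and 125 in model and 195, 210 and 196 in HME rats. HME rats lay above all model and all control rats, at 0.68 against model (SE 0.14, adjusted p = 0.141; DESeq2 adjusted p = 0.0072), and model rats were -0.39 against control (adjusted p = 0.319). Its close relative Abca8 gave 0.84 and -0.55 in the same comparisons and passed in neither. Reads that match both genes could have been lost or placed on the wrong one. Model replicate 1 was the lowest rat for Abca2, Abca6 and Abca8a. Without it, the log2 fold change of Abca2 in HME against model was 0.21 in place of 0.42, and that of Abca6 was 0.24 in place of 0.39.

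All 4 Abcd genes had a log2 fold change below 0 in HME against control, where 49.1% of all genes were above 0. At an unadjusted p under 0.05, 2 of them were lower, as were 12.5% of all genes. Abcd2, a carrier of very long-chain fatty acids, had 29, 47 and 15 counts in control, 8, 7 and 4 in model and 5, 3 and 6 in HME rats. All fructose-drinking rats lay below all control rats, and the log2 fold change was -2.70 in HME (SE 0.55, adjusted p = 0.0223) and -2.23 in model against control (SE 0.54, adjusted p = 0.122), at few counts. Abcd3, the major peroxisomal member, was at 203, 228 and 215 CPM in control, 230, 191 and 221 in model and 205, 169 and 149 in HME rats, and overlapped between groups (log2 -0.31 in HME against control, adjusted p = 0.198). Abce1, which recycles ribosomes, was at 81.1, 86.4 and 71.5 CPM in control, 62.5, 58.8 and 62.1 in model and 55.5, 66.4 and 57.4 in HME rats. Its control rats lay above all others, at -0.38 in model (adjusted p = 0.252) and -0.42 in HME rats (adjusted p = 0.058). Abcf1 had the same order at smaller size, -0.23 and -0.26. All 4 Abce and Abcf genes were below 0 in both comparisons with control, with medians of -0.19 and -0.22. Of all genes, 49.9% were above 0 in model and 49.1% in HME against control. Among the mitochondrial members, Abcb8 was at 21.8, 25.1 and 22.2 CPM in control, 20.0, 20.3 and 19.4 in model and 17.8, 18.7 and 19.1 in HME rats, and the 3 groups did not overlap, while its adjusted p in HME against control was 0.131.

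The rodent Abcg2 relatives were measured at low levels. Abcg3l1 was at 8.21, 4.48 and 3.26 CPM in control, 5.78, 6.62 and 9.44 in model and 2.99, 4.10 and 4.96 in HME rats, with HME rats below model rats (log2 -0.85, adjusted p = 0.450). Abcg3l3 was at 8.61, 8.83 and 6.66 CPM in control, 6.29, 6.04 and 6.35 in model and 4.02, 5.504 and 6.77 in HME rats, with model rats below control rats (log2 -0.37, adjusted p = 0.460). Reads shared by these copies could have been lost or placed on the wrong copy.

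**Figure D4:**
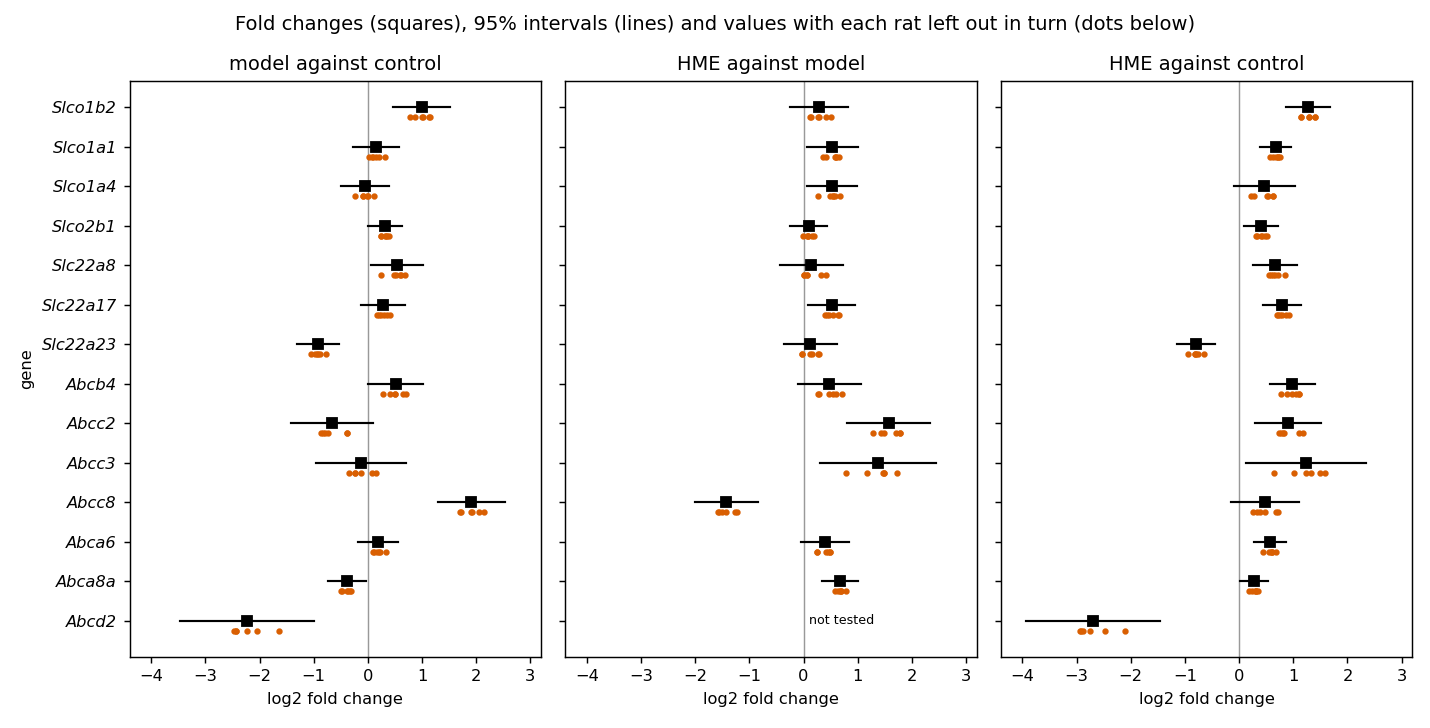
Log2 fold change (x axis) of 14 members (y axis) over all 6 rats of a comparison (squares) with its 95% interval (lines), and the values with each rat left out in turn (dots under each line), in 3 panels. The Abcc8 values in model against control stay between 1.70 and 2.15 and those of Slco1b2 in HME against control between 1.14 and 1.41, while those of Abcc3 and Slco1a4 cross 0 in model against control.

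Genes that share regulators with these transporters were read from gene lists, which were also drawn up with earlier results of these data known. The PXR and CAR targets, enzymes induced by the xenobiotic receptors that also act on Abcc2 and Slco1a4, had 14 tested genes. In HME against model, 2 were higher at an adjusted p of 0.05 or less and 0 lower (Cyp2b2, log2 1.43, adjusted p = 0.0149, and Ces2c, 2.08, adjusted p = 0.036), with a list median of 0.49. Of all genes, 0.456% passed there in either direction. Cyp2b2, a drug-oxidising P450, was at 20.7, 44.3 and 13.8 CPM in control, 40.0, 33.9 and 42.4 in model and 87.6, 123 and 101 in HME rats. In HME against control, where 7.21% of all genes passed, 4 were higher and 0 lower. Of these, Cyp3a23/3a1, the steroid- and drug-oxidising P450, was called (log2 1.45, adjusted p = 3.24e-04). It was at 602, 630 and 607 CPM in control, 1024, 519 and 540 in model and 1738, 1669 and 1618 in HME rats. None passed in either direction in model against control. The HME rats lay above all other rats for both P450 genes, as they did for Slco1a1, Abca2 and Abca8a. For Abcc2 and Slco1a4 they lay above the model rats only and overlapped the control rats. Of the 14 enzymes, HME rats lay above control rats for 7 and above model rats for 5. Over all genes, 30.1% and 14% did not overlap in either direction. A shared regulator was not tested.

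The list of regulators, 21 genes that include the enzyme gene Por, gave 0 higher and 1 lower at an adjusted p of 0.05 in model against control. It gave 0 and 0 in HME against model, and 0 and 2 in HME against control. The lower gene in both comparisons with control was Por (log2 -1.71, adjusted p = 0.0028 in model, and -1.36, adjusted p = 3.84e-04 in HME rats). Por encodes the reductase that feeds electrons to the P450 enzymes and is not itself a regulator. It was the only gene of the list that passed in model against control, and the other gene in HME against control was Arnt. The receptor genes Nr1i2 (PXR) and Nr1i3 (CAR) differed by -0.45 and 0.43 in HME against control and did not pass. Of 9 NRF2 targets, 0 passed in model against control or in HME against model, and 1, Nqo1, was lower in HME against control. Of the 7 proteins that anchor transporters at the membrane, 1 passed in HME against control, Slc9a3r1, which binds the tail of Mrp2 (log2 -0.65, adjusted p = 0.0483), and 0 in the other comparisons. Of 6 tested transporters that the rule does not hold, Abcb11 among them, Slc10a1 was higher and Slc10a5 lower in HME against control. At an adjusted p of 0.05, 0.601% of all genes passed in model against control, 0.456% in HME against model and 7.21% in HME against control.

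Marker genes of other cells were read as summed levels and by direction. The sums of the lists in this paragraph overlapped between groups. The pancreas and intestine sum given above did not overlap between control and model rats. Endothelial markers (7 of 8 found) summed to 211 to 309 CPM in control, 161 to 368 in model and 216 to 303 in HME rats. Kupffer cell and leukocyte markers (8 of 8) summed to 298 to 674, 214 to 487 and 296 to 399 CPM, stellate cell markers (7 of 7) to 294 to 330, 228 to 346 and 286 to 396 CPM, and bile duct markers (7 of 7) to 18.1 to 24.4, 17.1 to 35.8 and 23.0 to 25.5 CPM. All 8 Kupffer cell and leukocyte markers had a log2 fold change below 0 in both comparisons with control, with medians of -0.35 in model and -0.35 in HME rats, and 0 of them passed an adjusted p of 0.05. The furthest from 0 was Marco, a scavenger receptor of Kupffer cells, at -2.03 in model against control (adjusted p = 0.310). The bile duct keratin Krt19 was at 1.16 in model against control (adjusted p = 0.461) and -1.44 in HME against model (adjusted p = 0.596). Red blood cell genes (3 of 5) summed to 195 to 711, 193 to 343 and 202 to 328 CPM, and kidney tubule genes (2 of 5) to 21.0 to 23.6, 18.3 to 32.8 and 13.0 to 21.4 CPM. Most of the kidney tubule sum was Lrp2. The other gene, Slc12a1, had 7, 0 and 0 counts in control, 23, 86 and 5 in model and 0, 1 and 0 in HME rats, and it was not tested. None of the genes found in these lists was at 0 in all rats, and the part of these cells in the transporter values was not tested.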

How the data were processed

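Liver mRNA of 9 rats (3 control, 3 model, 3 HME) was measured by RNA sequencing. Per the submitters' processing notes and the methods, the authors aligned reads to Rnor_6.0 with HISAT2 and used HTSeq 0.6.1 in unstranded mode to assign them to gene exons, so a gene and an antisense neighbour cannot be told apart. The deposited table holds raw counts per gene and library, unnormalized. A table of newly assembled transcripts was not used here. Totals were 14345819 to 26837227 counts per library. The depth limits low genes most.

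The counts of the 6 libraries of each comparison were filtered (filterByExpr), scaled by TMM and fitted with edgeR 4.0.16 in R 4.3.3 (quasi-likelihood test, robust, group as the only term), with Benjamini-Hochberg adjustment over all genes tested. The thresholds (adjusted p of 0.01 and absolute log2 fold change of 0.5) are those of the study. DESeq2 1.42.0, which stands closer to the tools of the study, was an alternative, with library size alone, no filter, a minimum of 10 counts in every library, all 9 libraries in 1 fit, a replicate block and each rat left out. CPM used TMM sizes over all 9 libraries. An exact permutation test of 3 against 3 rats cannot go below 0.1, so none was run. Error bars and ± are SDs over rats, intervals are 95% intervals of the fit, and figures were drawn with matplotlib 3.10.9. No libraries were duplicates. p-values measure the spread between rats.

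Members and gene lists were chosen with earlier results of these data known. Members were named if they belong to the list of hepatic drug and bile carriers, passed an adjusted p of 0.05, or were among up to 8 members per comparison whose groups did not overlap, at a mean of 50 or more counts. Other named members, and the channel partners of Abcc8, were chosen after their values were seen. On simulated counts for model against control (12297 genes, 200 changed by a log2 fold change of 2), edgeR recovered 84.5% with 4 false calls and DESeq2 91% with 15. The median absolute log2 fold change of the members in that comparison was 0.28. Recovery of changes of that size was not simulated, so these rates do not apply to most members. No sequences are printed, because the reference tables used here are of the mouse. A few listed genes are not reported here.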

Additional observations from a re-analysis of the deposited data

How the results depend on the processing

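The number of called members changed with the test. It was 0 in model against control, and 1 without the filter, 3 with DESeq2 and 1 at an adjusted p of 0.05 with the same fold threshold. In HME against model it was 0, and 3 with DESeq2. In HME against control it was 1, and 0 with library size alone or with all 9 libraries in 1 fit, 6 without the filter, 7 at an adjusted p of 0.05, 9 with DESeq2 and 0 to 1 with a rat left out. DESeq2 called 2.05%, 1.18% and 6.09% of all genes in the 3 comparisons, in this order. At an adjusted p of 0.05 without a fold threshold, 0.601% of all genes passed in model against control and 7.21% in HME against control. Shares of all genes under the other settings are not given here, so these counts are no result about the members. The cause of the changes in number was not tested. Members at an unadjusted p under 0.05 stayed within 1.5 times the main counts, at 6 to 13, 6 to 9 and 16 to 23 with a rat left out.

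Of 882 fold changes of named genes under alternatives, 857 kept their direction and 25 turned. The log2 fold change of Abca2, model against control, turned to -0.0832 with library size alone and to -0.00392 with the replicate block. With library size alone Abcc6 turned to -0.0507 in that comparison. With a rat left out, the range there was -0.107 to 0.232 for Abca2, -0.346 to 0.146 for Abcc3, -0.028 to 0.172 for Abcc6 and -0.239 to 0.107 for Slco1a4. In HME against model it was -0.138 to 0.297 for Abcc4, -0.012 to 0.1998 for Abcc6, -0.107 to 0.0202 for Abce1, -0.0259 to 0.278 for Slc22a23, -0.161 to 0.0808 for Slc22a7 and -0.00337 to 0.2002 for Slco2b1. In HME against control it was -0.28 to 0.207 for Abcg2 and -0.665 to 0.049 for Abcg3l1.

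Rats of the 3 groups share replicate numbers, but no label links them, and the correlations of same-numbered rats ran from -0.232 to -0.0206. With the replicate block the called members were 0, 0 and 1, and those at an unadjusted p under 0.05 were 7, 8 and 19.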
